A study of Mus musculus with 25 samples.

Results

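The genes described here are 9 genes of extracellular matrix breakdown and of its inhibition: the matrix metalloproteinases Mmp8, Mmp9, Mmp12, Mmp14 and Mmp19, the membrane-anchored metalloproteinase Adam8, and the tissue inhibitors of metalloproteinases Timp1, Timp2 and Timp3. They were chosen by name, and all 9 were found among the 22439 gene rows of the deposited count matrices. The matrices hold droplet 3′ single-cell RNA counts of 30958 myeloid cells from mouse spinal cord, in 25 libraries that each pooled tissue from 1 to 3 mice. Tissue came from the lesion at day 1, 2, 3, 10 or 21 after spinal cord injury (D1, D2, D3, D10 and D21, with 5, 4, 7, 5 and 2 libraries) or from laminectomy controls (Ctrl, 2 libraries). Because mice were pooled, the library is the replicate here, and since the labels do not say whether libraries shared mice, the p-values measure the spread between libraries.

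Every mouse, controls included, carried Cx3cr1CreERT2, which places an inducible Cre recombinase at the locus of Cx3cr1, a receptor gene of microglia and of part of the blood monocytes. Mice of the strain Cx3cr1CreERT2:R26tdTomato also carried a red reporter (RFP) that Cre switches on, and their cells were sorted as RFP+/YFP+ (resident, 5 libraries) or RFP-/YFP+ (infiltrating, 7 libraries). Mice without the reporter were sorted on YFP alone (mixed, 12 libraries), so strain and sort split the libraries the same way and cannot be told apart. For 1 more library at D3 the title says infiltrating while the sort label names both colours. It was left out of every fit and of the values given by library, and is called the library with conflicting labels. Its cells are counted in the shares of all counts, the counts per cell and the cluster values below. Ages are not given in the sources used here. Libraries are named below by time point, sort and replicate, as in D3_mixed 3.

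Libraries ranged from 155 to 3800 cells and from 486649 to 33204422 UMIs (unique molecular identifiers, which count captured molecules), and no cell barcode occurred in 2 libraries. The authors' cell type codes carry no names and were named from marker lists. Microglia (13289 cells) had all 9 of 9 microglia markers, and macrophages (12841 cells, monocytes included) had 7 of 8 macrophage and 4 of 8 monocyte markers. Dendritic-like cells (2712) had 6 of 8 and neutrophil-like cells (2116) 7 of 7 of theirs. Mmp9 is itself among the 5 leading genes of the neutrophil-like cells by fold, and Mmp12 leads the authors' cluster 14, so their levels there are given as a description.

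Matrix metalloproteinases are zinc enzymes that cut collagens, elastin, basement membrane proteins and many cell surface proteins. Most are made as inactive proenzymes and are secreted, while Mmp14 and Adam8 stay in the membrane, and neutrophils store Mmp8 and Mmp9 ready-made in granules. Timps bind the active site of the enzymes and block it, and Timp2 together with Mmp14 also takes part in activating a secreted gelatinase. In the injured spinal cord the family is known for opening the blood-spinal cord barrier, for leukocyte entry and for remodelling of the scar.

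Promoter sequences were available for 7 of the 9 genes, from RefSeq on GRCm38.p6, as windows of 250 bases before an annotated start (8 windows, since Mmp12 has 2 starts). Those of Adam8, Timp1 and Mmp12, the 3 genes that rose together in microglia at D1, are shown beside that of Mmp14, which fell there by D3, read 5′ to 3′ in the gene's direction. Capitals mark matches to an AP-1 motif (TGANTCA) or a GC box (GGGCGG), each searched on both strands.
Adam8, chr7:139992563-139992812, minus strand: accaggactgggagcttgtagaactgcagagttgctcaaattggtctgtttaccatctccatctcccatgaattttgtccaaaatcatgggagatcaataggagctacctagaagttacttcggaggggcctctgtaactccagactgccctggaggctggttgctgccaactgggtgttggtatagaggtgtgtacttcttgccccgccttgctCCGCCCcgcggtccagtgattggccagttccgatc
Timp1, chrX:20869916-20870165, plus strand: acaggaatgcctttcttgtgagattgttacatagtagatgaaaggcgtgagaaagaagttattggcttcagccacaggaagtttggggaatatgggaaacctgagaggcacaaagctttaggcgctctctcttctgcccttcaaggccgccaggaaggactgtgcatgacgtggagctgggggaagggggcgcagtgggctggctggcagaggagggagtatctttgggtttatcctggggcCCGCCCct
Mmp12 at its second start, chr9:7347124-7347373, plus strand: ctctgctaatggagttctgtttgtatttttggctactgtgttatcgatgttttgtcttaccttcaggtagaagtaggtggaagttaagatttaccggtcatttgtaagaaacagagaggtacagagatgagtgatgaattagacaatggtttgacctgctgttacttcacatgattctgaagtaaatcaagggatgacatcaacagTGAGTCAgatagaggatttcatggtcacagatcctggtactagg
Mmp14, chr14:54431348-54431597, plus strand: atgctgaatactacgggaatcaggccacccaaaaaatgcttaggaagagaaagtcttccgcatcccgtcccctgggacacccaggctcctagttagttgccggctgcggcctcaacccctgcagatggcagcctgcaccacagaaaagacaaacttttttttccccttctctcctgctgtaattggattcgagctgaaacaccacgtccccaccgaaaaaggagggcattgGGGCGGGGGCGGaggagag
The AP-1 motif lay in 1 of the 8 windows, that of the second start of Mmp12, and in 6.75% of 32851 promoter windows of the same length. A GC box lay in 5 of the 8 windows against 32.74% of all, with 2 adjoining copies before Mmp14 and 1 each before Adam8 and Timp1. The other windows with one, of Timp2 and Timp3, have 203 and 40 of their 250 bases inside annotated exons. The window of the first Mmp12 start, not shown, held neither motif. A match describes letters in the window and is not a measured binding site.

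The first comparison asked in which cell type each gene was found. Counts were summed over the cells of a type in a library, and levels are given as CPM, the counts scaled to 1e6 UMIs of that sum, with 19 microglia, 19 macrophage, 9 dendritic-like and 4 neutrophil-like sums of at least 20 cells. The types cover unlike mixes of time points, with neutrophil-like sums from D1 and D2 alone. Medians and orders over these sums are thus not matched for time. Since each UMI stands for 1 molecule read from its 3′ end, CPM needs no correction for gene length. Of all counts of a gene, 91.1% for Mmp9 lay in neutrophil-like cells, which gave 2.31% of all UMIs. Macrophages gave 58.0% of all UMIs and held 89.5% of the counts of Mmp8, 88.6% of Mmp19, 83.3% of Adam8, 73.0% of Timp1 and 71.2% of Mmp14. Timp2 was the exception, with 57.2% of its counts in microglia, which gave 24.8% of all UMIs. Without the library with conflicting labels, a setting chosen after seeing the data, these shares were 89.7% for Mmp9, 87.4% for Mmp8, 86.9% for Mmp19, 80.1% for Adam8, 72.8% for Timp1, 69.4% for Mmp14 and 59.9% for Timp2. Timp3 had 75 counts in the whole series and was too rare to compare.

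Among the secreted proteases, Mmp9 (gelatinase B, chromosome 2, 164940780 to 164955850) had 1424 and 542 CPM in the neutrophil-like cells of the infiltrating D1 libraries, 1746 in D2_infiltrating 1 and 405 in D2_mixed 2. In macrophages it ran from 0 to 11.99 CPM with a median of 0.400, and in microglia from 0 to 0.629. The lowest neutrophil-like sum was thus above every sum of the other cell types, but the authors set these cells apart by expression, and Mmp9 is one of their leading genes. Mmp8, the neutrophil collagenase (chromosome 9, 7558456 to 7568485), was not held to neutrophil-like cells: it had 57.1, 104, 726 and 10.4 CPM there (same libraries), against 4.24 to 141 CPM in macrophages (median 49.8). The ranges overlapped. In microglia Mmp8 did not pass 7.40 CPM and was at 0 in 11 of 19 sums. Mmp19, which cleaves basement membrane proteins (chromosome 10, 128790910 to 128800824), showed the same overlap, with 38.9, 127, 260 and 10.4 CPM in neutrophil-like cells and 0 to 119 in macrophages (median 16.4). Its median in microglia was 1.25 CPM.

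Mmp14, the membrane collagenase (chromosome 14, 54431612 to 54445364), was found in macrophages (13.02 to 167 CPM, median 82.7) and dendritic-like cells (22.5 to 148, median 82.0) over overlapping ranges. It was lower in microglia (4.12 to 49.8, median 14.8) and neutrophil-like cells (1.46 to 31.2). Mmp12, the macrophage elastase (chromosome 9, 7344381 to 7369499), had a median of 6.74 CPM in microglia and of 12.8 in macrophages. Its highest macrophage sum, 1317 CPM in D21_mixed 1, stood far above the rest.

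**Figure D1:**
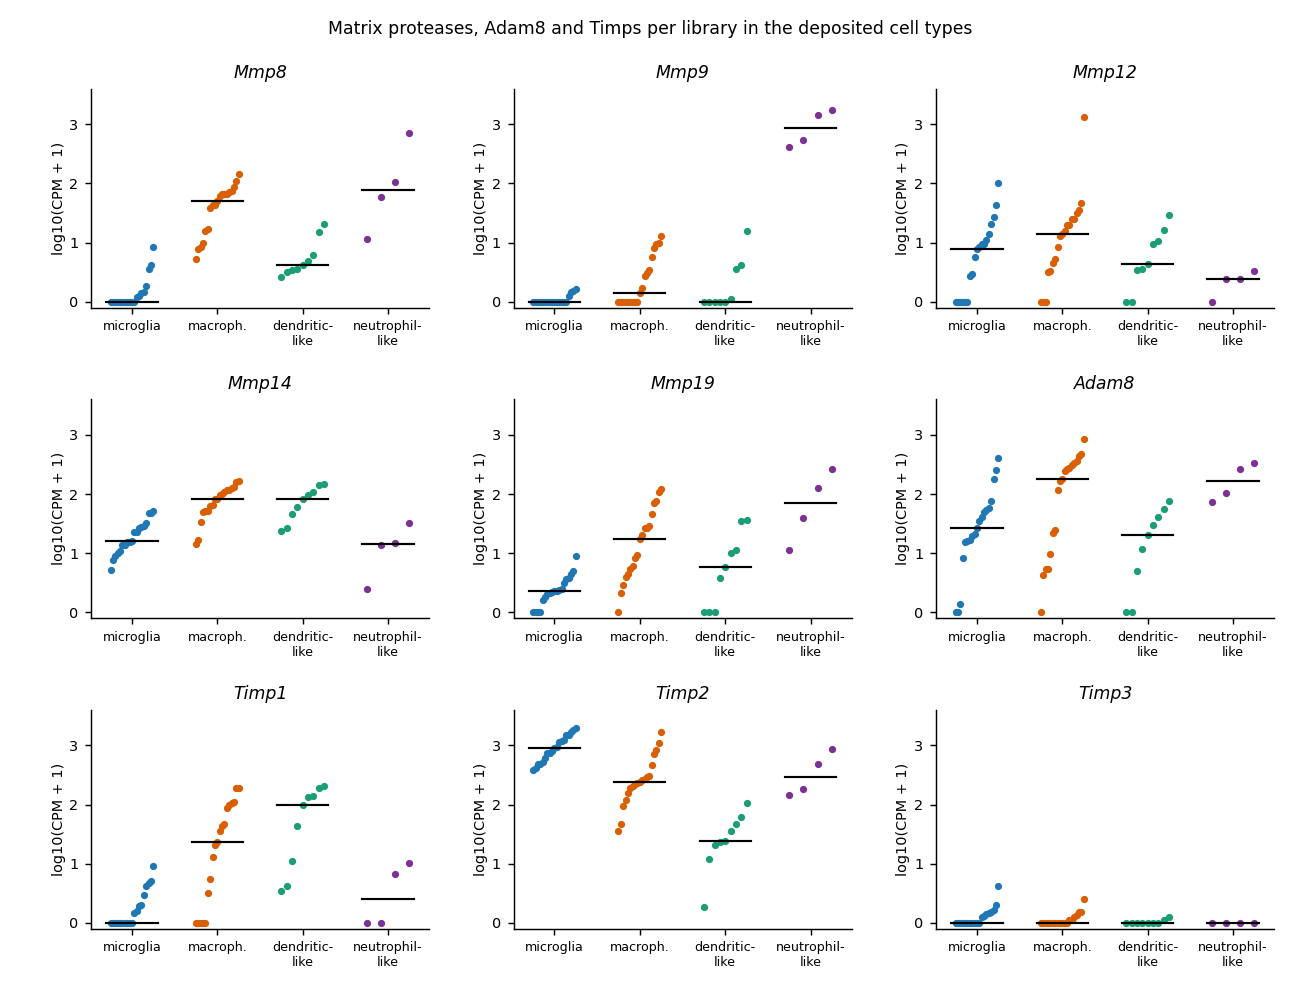
Each point is 1 library's summed cells of a cell type, plotted as log10(CPM + 1), sorted by height, with the bar at the median (19 microglia, 19 macrophage, 9 dendritic-like and 4 neutrophil-like sums, the library with conflicting labels left out). Mmp9 is high in the neutrophil-like cells alone (405 to 1746 CPM), Timp2 is highest in microglia, and 1 macrophage sum of Mmp12 lies at 1317 CPM.

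Adam8, which sheds adhesion molecules from leukocytes (chromosome 7, 139978932 to 139992562, minus strand), spanned 0 to 842 CPM in macrophages (median 181), 0 to 405 in microglia (median 26.1) and 73.1 to 328 in neutrophil-like cells. In dendritic-like cells it did not pass 74.2 CPM. Of the inhibitors, Timp1 (chromosome X, 20870166 to 20874735) had its highest median in dendritic-like cells (96.9 CPM, range 2.50 to 207), ahead of macrophages (21.9, range 0 to 191), and these ranges overlapped. Within the same libraries the difference was 0.36 on the log2 scale and was not called, as given below. Microglia reached 7.98 CPM and neutrophil-like cells 9.14 CPM. Timp2 (chromosome 11, 118301069 to 118355740, minus strand) was the most abundant of the 9 genes in microglia, at 384 to 1964 CPM (median 890.4). It had 34.6 to 1720 CPM in macrophages (median 242), 146 to 884 in neutrophil-like cells and 0.873 to 106 in dendritic-like cells. Timp3 (chromosome 10, 86300372 to 86349506) was at 0 in 11 of 19 microglia and 12 of 19 macrophage sums and did not pass 3.14 CPM. The order of the medians for Timp2 was microglia, neutrophil-like cells, macrophages and dendritic-like cells, and each of these ranges overlapped the next. The ranges of microglia and of neutrophil-like cells lay above that of dendritic-like cells without overlap.

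Cell types were then compared inside the same libraries with edgeR, keeping the library as a block. The authors set the types from expression, so these p-values measure how steady a difference was over libraries. Between macrophages and microglia (14 libraries), 5 of the 7 tested genes passed an adjusted p of 0.05, and 28.6% of all 9596 tested genes did. Mmp8 was 5.93 higher in macrophages on the log2 scale (SE 0.35, adjusted p = 2.52e-10) and higher in 14 of 14 libraries. Timp1 was 3.90 higher (SE 0.47, adjusted p = 9.38e-06), Mmp19 2.73 higher (SE 0.32, adjusted p = 2.55e-06) and Mmp14 1.81 higher (SE 0.28, adjusted p = 4.71e-05). Timp2 went the other way, at -1.60 (SE 0.23, adjusted p = 1.60e-05), and was lower in macrophages in 13 of 14 libraries. Mmp12 and Adam8 did not pass: Mmp12 was higher in macrophages in 6 libraries and lower in 6, and Adam8 was higher in 10 and lower in 4 (log2 difference 1.11, SE 0.42, adjusted p = 0.0545). Adam8 passed in the D1, D2 and D3 libraries alone (1.77, adjusted p = 1.09e-04).

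In the 4 libraries with enough neutrophil-like cells, 6 of the 8 tested genes differed from macrophages, with a background of 48.1% of 9679 genes. Mmp9 was 7.72 higher (SE 0.66, adjusted p = 8.92e-08) and Timp2 1.91 higher (SE 0.42, adjusted p = 0.00136), both in 4 of 4 libraries. Lower in 4 of 4 libraries were Timp1 (-4.90, SE 0.46), Mmp12 (-4.03, SE 0.58), Mmp14 (-3.44, SE 0.41) and Adam8 (-1.16, SE 0.34, adjusted p = 0.00914). Mmp8 and Mmp19 were each higher in 2 libraries and lower in 2 and did not pass. The Adam8 difference was lost without D1_infiltrating 1 (-0.80, adjusted p = 0.0816).

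Dendritic-like cells were compared with macrophages in 9 libraries, where 4 of the 8 tested genes passed and 40.5% of 10353 genes did. All 4 were lower in dendritic-like cells: Mmp8 by -3.87 (SE 0.36), Adam8 by -3.21 (SE 0.20), Timp2 by -2.92 (SE 0.23) and Mmp19 by -2.48 (SE 0.23). For Mmp8, Adam8 and Timp2 this held in 9 of 9 libraries. Timp1 was higher in 9 of 9 libraries, by 0.36 (SE 0.15), and did not pass (adjusted p = 0.0756). Mmp14 did not pass either (-0.34, SE 0.15, adjusted p = 0.0876), although it was lower in 7 of 9 libraries and passed with at least 50 cells per sum (-0.33, adjusted p = 0.0235). Mmp12 did not pass (-1.15, SE 0.54, adjusted p = 0.11), but it did as lower with at least 50 cells (-1.80, adjusted p = 0.00109) and without D10_infiltrating 1 (-1.64, adjusted p = 0.002). For Mmp14 and Timp1 a p that misses the threshold does not show equal levels in both cell types.

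**Figure D2:**
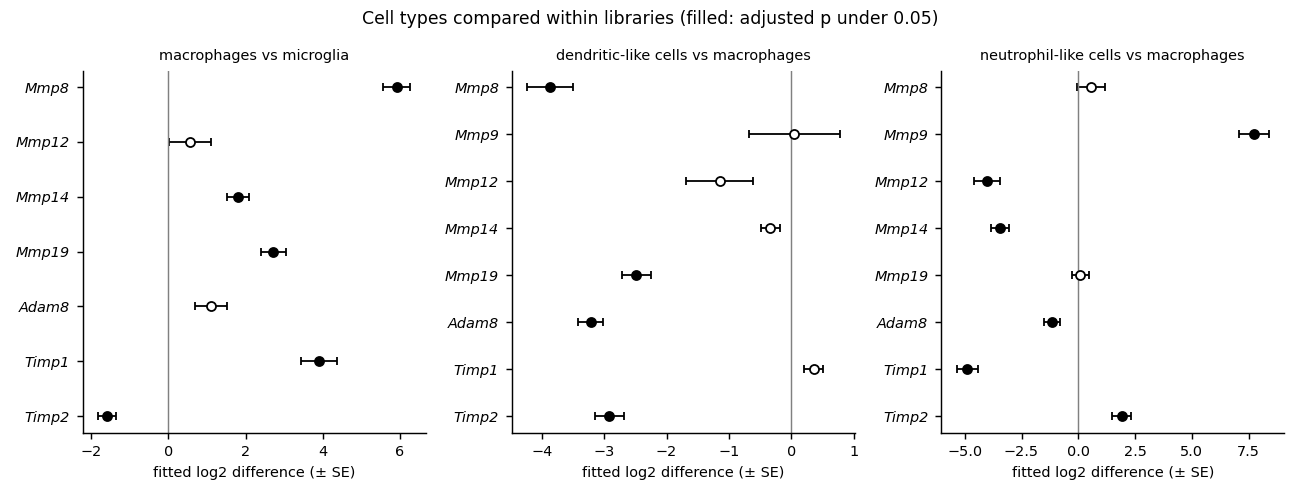
Fitted log2 differences between cell types within libraries (horizontal axis, bars are ± SE) for each tested gene, from 14, 9 and 4 libraries, filled where the adjusted p is under 0.05. Mmp9 stands out in neutrophil-like cells (7.72), Mmp8 in macrophages over microglia (5.93), and Timp2 is the gene that is lower in macrophages than in microglia.

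The next question was how the genes changed in microglia after injury. Microglia were compared over 17 resident and mixed libraries (Ctrl 2, D1 3, D2 3, D3 5, D10 3 and D21 1), with time point and sex as terms, and the comparisons with Ctrl share the 2 control libraries. All D1 libraries here were male and the D21 library was female. Within Ctrl and within D10, sex split the libraries as sort did, so there sex cannot be told apart from sort, strain or pool. Adam8, Mmp12 and Timp1 rose at D1, Adam8 was higher at every later time point, as was Mmp12 with calls at D2, D3 and D10 that depend on the control library Ctrl_mixed 1 and a call at D21 that rests on 1 library, Timp2 rose from D3 on, and Mmp14 was lower at D3. Of the 7 tested genes, 3 passed at D1 (46.6% of 10801 genes did), 2 at D2 (29.7% did) and 5 at D3 (37.6% did), with 3 each at D10 (10.3% of genes) and D21 (6.98%). At D1 and D2 the share of these genes called is near that of all genes. Mmp9 and Timp3 were too low to be tested, and Mmp8 and Mmp19 were tested and called at no time point. Mmp19 came near at D1 (2.02 higher, SE 0.81, adjusted p = 0.0504) and passed when 1 of 5 single libraries was left out (adjusted p from 0.0275 to 0.0498).

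Adam8 had 0.357 CPM in the mixed and 0 in the resident control library, 2 counts in all. At D1 it had 178, 256 and 405 CPM. It had 56.3, 53.6 and 7.40 CPM at D2, 18.6 to 74.2 at D3 (median 39.2), 15.1, 20.2 and 14.7 at D10, and 26.1 in the single D21 library. Every injured library was above both controls, and the D1 libraries were above all later ones. The summed counts at D1 were 1039 times those of controls per UMI (95% counting interval 287.5 to 8585, edgeR adjusted p = 9.99e-07), and at D10 63.9 times (17.4 to 531, adjusted p = 1.96e-04). These ratios rest on the 2 control counts, both in Ctrl_mixed 1. Without that library controls were at 0, the fitted D1 change moved from 10.59 to 12.79 on the log2 scale, and it stayed called. From D1 to D3 Adam8 fell by 2.85 on the log2 scale (SE 0.39, adjusted p = 1.54e-04). Of the 7 tested genes 4 passed between D1 and D3, where 18.8% of all genes did: Adam8, Mmp12 and Mmp14 lower, and Timp2 higher. The few microglia of 2 infiltrating libraries, which entered no time fit, had 0 CPM at D10 (36 cells) and 15.6 CPM at D21 (41 cells).

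Markers of microglia and of other cell types moved in the same sums. The 9 microglia markers summed to 23004 and 25156.5 CPM in controls and to 3497 to 6944 at D1. At D3 they summed to 6906 to 11192.5 and at D21 to 8841. The 8 macrophage markers summed to 324 and 385 CPM in control microglia, to 865 to 1127 at D1, to 1878 to 3562 at D3 and to 5841 at D21, with Gpnmb at 0 in controls and Mrc1 at D21. In macrophage sums at D1 they came to 15860 to 23786 CPM, where Adam8 had 277 to 842. The 8 monocyte markers in microglia summed to 9.29 and 9.71 CPM in controls (F10 at 0) to 9.19 to 31.8 at D1, to 47.7 to 66.6 at D2 and to 35.5 to 184.6 at D3. The 8 dendritic markers summed to 32.4 and 37.3 CPM in controls, 71.4 to 124 at D10 and 165 at D21. In microglia the 4 neuron markers summed to 14.03 and 14.11 CPM in controls and 37.0 to 61.8 at D2, and the 5 astrocyte markers to 10.2 and 22.0 in controls and 37.0 to 68.7 at D2. The 7 neutrophil markers summed to 201 and 220 CPM in controls and to 38.1 to 103 at D1, with 2 of the 7 at 0 in both groups. Their part in the changes of Adam8, Mmp12, Mmp14 and Timp2 was not tested.

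Mmp12 had 0 counts in both control libraries. It had 4.81, 42.7 and 9.98 CPM at D1, 8.34, 8.52 and 0 at D2, 0 to 7.54 at D3 (median 1.99), 25.7, 20.02 and 13.1 at D10 and 99.7 in the D21 library. Against 3 counts, the limit that 0 counts over both controls allow, Mmp12 was at least 43.1-fold higher at D1 (adjusted p = 2.46e-04), 20.5-fold at D2 (0.00402), 13.2-fold at D3 (0.00659), 46.1-fold at D10 (0.00115) and 248-fold at D21 (1.77e-04). Without D1_mixed 2, which held 150 of the 215 counts at D1, the bound there was 18.2-fold. Ctrl_mixed 1 gave 5597527 of the 7451300 control UMIs behind these bounds. Over the 1853773 UMIs of the other control alone, each bound would be lower. The calls at D2, D3 and D10 were lost without Ctrl_mixed 1, which leaves 1 control library, and those at D2 and D3 with pool as a term (adjusted p = 0.0716 and 0.384). With any 1 library left out the fitted log2 changes stayed at 7.20 to 7.76 at D2, 6.79 to 7.55 at D3 and 8.64 to 9.21 at D10. At D21 the 1 library is assumed to vary like the others. The few microglia of D10_infiltrating 2 (36 cells) and D21_infiltrating 1 (41 cells), outside the fit, had 0 Mmp12 counts. Its fall from D1 to D3 (-2.11, SE 0.67, adjusted p = 0.038) was lost without D1_mixed 2 (-0.77, adjusted p = 0.429), without any of 4 of the 5 D3 libraries (D3_mixed 3 excepted; adjusted p from 0.0524 to 0.0682) and without cluster 2, a cluster of low UMI counts (-1.04, adjusted p = 0.295).

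Mmp14 had 49.8 and 47.5 CPM in control microglia, where Mmp19 had 1.25 and 2.70. It had 21.4, 31.3 and 27.2 CPM at D1, 27.3, 22.1 and 14.8 at D2, 4.12 to 14.5 at D3 (median 9.93), 8.87, 12.9 and 25.9 at D10 and 14.4 at D21. All injured libraries of the fit lay below both controls. Outside the fit, the 36 microglia of D10_infiltrating 2 had 4 counts, or 47.6 CPM, at the level of controls, and the 41 of D21_infiltrating 1 had 7.79 CPM. The fitted change passed at D3 alone, where it fell by 1.75 on the log2 scale (SE 0.40, adjusted p = 0.00322). At D1, D2 and D10 it was -0.34 (SE 0.42), -0.69 (SE 0.41) and -1.12 (SE 0.40), and at D21 -0.75. Summed counts per UMI were 0.53 times those of controls at D1 and 0.29 times at D21, larger falls than the fitted ones. The fit scales by TMM and has sex as a term. With sequencing pool as a term, D3 did not pass (-1.03, adjusted p = 0.641) and D10 did (-1.26, adjusted p = 0.0178). Between D1 and D3 it fell by 1.41 (SE 0.36, adjusted p = 0.0117), a call lost without D1_mixed 2 (-1.29, adjusted p = 0.0515).

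Timp1 was at 0 in both controls and had 4.16, 7.98 and 3.71 CPM at D1, at least 12.6-fold more than controls (adjusted p = 0.00149). As for Mmp12, most control UMIs behind this bound are those of Ctrl_mixed 1, and the bound would be lower without it. At D3 it had 0 in 3 of 5 libraries and 1.93 and 3.14 CPM in the other two, and the D3 call (adjusted p = 0.0225) was lost under 6 of the alternatives tried. Timp2 was abundant throughout: 617 and 519 CPM in controls, 478, 384 and 409.6 at D1, 808, 483 and 748 at D2, 748 to 1709 at D3 (median 948), 1964, 1499.9 and 1809.7 at D10 and 1518 at D21. All D3, D10 and D21 libraries were above both controls. All D1 libraries were below both, at 0.72 times controls in summed counts per UMI. The fitted D1 change had the opposite sign (0.32, SE 0.32) and was not called. Timp2 rose by 1.55 on the log2 scale at D3 (SE 0.31, adjusted p = 0.0011), by 2.22 at D10 (SE 0.33, adjusted p = 3.23e-04) and by 2.27 at D21 (SE 0.40, adjusted p = 0.00152), where the spread of the 1 library is borrowed from the other time points. It also rose from D1 to D3 (1.24, SE 0.26, adjusted p = 0.00332).

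Between D3 and D10 no gene of the 9 was called by edgeR, where 6.88% of all genes were. At an unadjusted p under 0.05 there were 3 (Adam8, Mmp12 and Timp2), and DESeq2 called 2, Adam8 lower (-1.38, adjusted p = 0.022) and Mmp12 higher (2.17, adjusted p = 0.0396).

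Some limits touch these results. In mixed libraries alone, which leaves 1 control library, Adam8 was the 1 gene still called at D1, D2 and D3 and no gene was called at D10, where Adam8 was still 9.06 higher (adjusted p = 0.0541) and Timp2 1.61 higher (0.335). The D1, D3 and D21 libraries shared no sequencing pool with a control, and at D1 and D21 the pool and the time cannot be told apart. At D3 a pool term could be fitted through the D2 libraries, and with it Mmp12, Mmp14 and Timp1 lost their calls (adjusted p = 0.384, 0.641 and 0.377). D10 shared its pools with both controls, and within them Adam8 had 20.2 and 14.7 CPM against 0.357, and 15.1 against 0. With pool as a term, Timp2 passed at D2 as well (0.97, adjusted p = 0.0424), and Adam8, Mmp12 and Timp2 passed at D10 as higher and Mmp14 as lower.

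**Figure D3:**
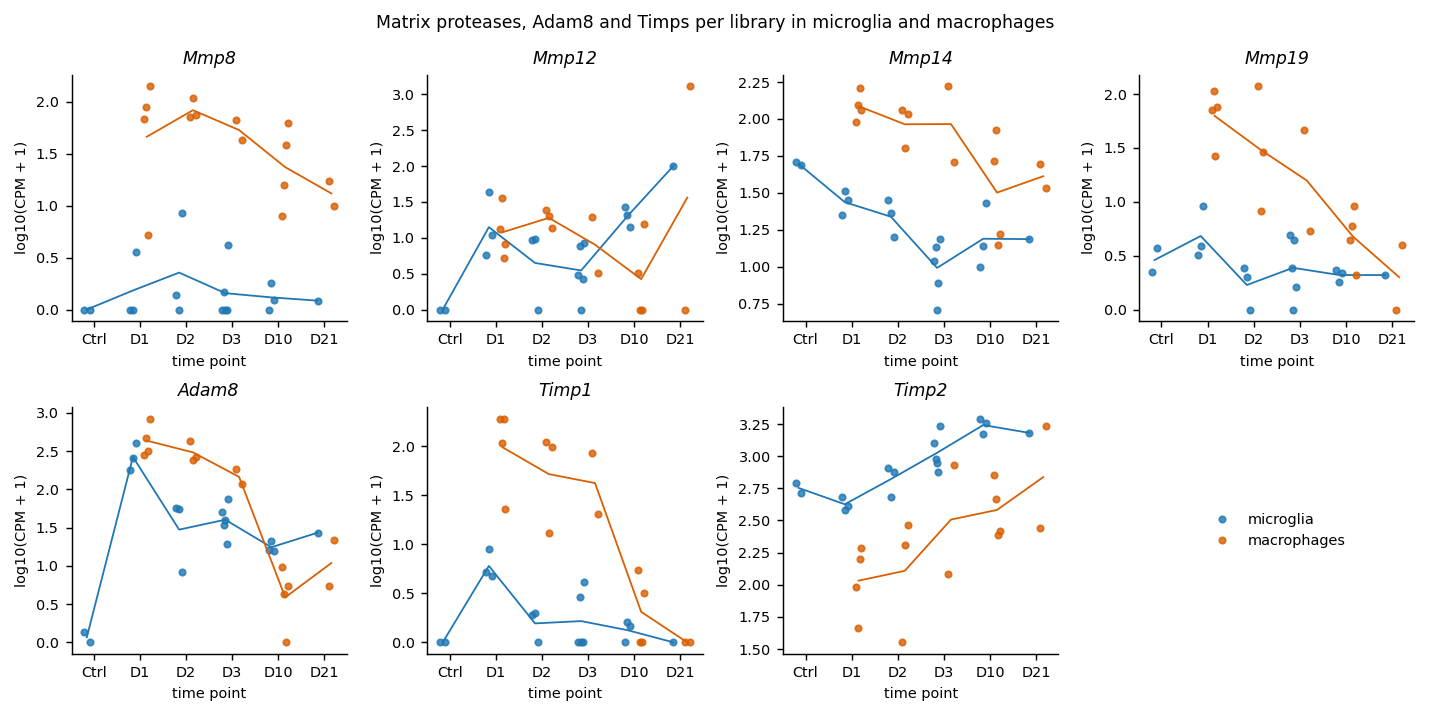
Each point is 1 library's summed microglia (blue) or macrophages (orange), as log10(CPM + 1), by time point; lines join the means of the plotted values. In microglia Adam8 peaks at D1 (178 to 405 CPM) and Timp2 climbs to 1499.9 to 1964 at D10, while in macrophages Adam8, Timp1 and Mmp19 drop by D10.

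In macrophages the question was how the same genes changed as the lesion aged. Macrophages were compared over 15 infiltrating and mixed libraries (D1 4, D2 3, D3 2, D10 4 and D21 2), with D1 as the reference, since no control library held 20 macrophages. Adam8, Timp1 and Mmp19 fell from D1 to D10, Adam8 and Timp1 were lower at D21, and no gene of the 9 was called higher at any time, though Timp2 and Mmp12 were at D21 under alternatives given below. At D10, 3 of 7 tested genes passed against 14.4% of 8577 genes, with a median change of -2.25 on the log2 scale against 0.01 over all genes. At D21, 2 of 7 passed against 3.56%. At D2 and at D3, 0 passed in edgeR, where 0% of all genes did. In DESeq2 0 of the 7 passed as well, and at an unadjusted edgeR p under 0.05 there were 0 at D2 and 2 at D3 (Adam8 and Timp2). Over all genes, 123 at D2 and 612 at D3 had an unadjusted p under 0.05, and DESeq2 called 0 and 5.

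Adam8 had 277, 475, 314 and 842 CPM at D1, 432, 244 and 265 at D2 and 181 and 115 at D3. At D10 it had 8.67, 3.31, 0 and 4.44 CPM, and at D21 4.41 and 20.9. No D10 or D21 library reached the D1 to D3 range. On the log2 scale the change was -6.63 at D10 (SE 0.65, adjusted p = 8.53e-05) and -5.40 at D21 (SE 0.88, adjusted p = 0.00703), the latter lost without D21_infiltrating 1 (-4.33, adjusted p = 0.157). Between D3 and D10 Adam8 was the 1 gene called (-5.00, SE 0.68, adjusted p = 0.00419), with 0.676% of all genes. The 4 macrophage sums of resident libraries, which entered no time fit, had 358 CPM at D2, 329 and 167 at D3 and 23.2 at D10.

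Mmp19 had 70.8, 107, 25.4 and 75.4 CPM at D1 and 119, 7.17 and 27.8 at D2. It had 45.1 and 4.40 at D3, 3.47, 4.96, 8.14 and 1.11 at D10, and 0 and 2.99 at D21. It fell by 4.27 on the log2 scale at D10 (SE 0.90, adjusted p = 0.00927), and the D1 and D10 ranges did not overlap. At D21 a single count remained, and the level was 89.9 times lower than at D1 (95% counting interval 16.1 to 3553; edgeR adjusted p = 0.0608, and 0.0343 without D2_infiltrating 1). Mmp8 had 66.6, 87.3, 4.24 and 141 CPM at D1 and 6.94, 14.9, 37.4 and 61.0 at D10, ranges that overlap through D1_mixed 1 (28 cells), and it was not called (-1.52, adjusted p = 0.113). Without sums under 50 cells it was (-1.94, adjusted p = 0.0229). Mmp14 had 94.5, 123, 161 and 114 CPM at D1 and 51.3, 82.7, 13.02 and 15.5 at D10. These ranges did not overlap, yet the fit did not pass (-1.49, SE 0.50, adjusted p = 0.0587), and it did in DESeq2 (-1.44, adjusted p = 0.0262). Mmp9 was too low to be tested: 171 counts at D1 and 0 at D10, at least 11.03-fold lower. D10_infiltrating 1 gave 4035558 of the 6156449 D10 UMIs behind this bound, which would be lower without it.

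Timp1 had 188, 107, 191 and 21.9 CPM at D1, 109.5, 11.9 and 97.0 at D2, 85.2 and 19.6 at D3, 4.46, 0, 0 and 2.22 at D10 and 0 in both D21 libraries. The D1 and D10 values did not overlap. It fell by 5.62 on the log2 scale at D10 (SE 0.91, adjusted p = 0.00288). At D21 it was at least 49.1-fold lower (adjusted p = 0.0254), a call lost without either D21 library or without D1_infiltrating 2. D21_infiltrating 1 gave 679707 of the 1014530 D21 UMIs behind this bound, which would be lower without it. Timp2 had 94.3, 45.3, 157 and 192 CPM at D1, 34.6, 203 and 289.8 at D2, 121 and 847 at D3, 713, 465, 242 and 263 at D10, and 274 and 1720 at D21. Every D10 and D21 library lay above every D1 library, and the fit was not called at D10 (adjusted p = 0.149) or D21 (3.23, SE 1.08, adjusted p = 0.0997). At D21 it was called higher with DESeq2 (3.26, adjusted p = 0.0116), with no expression filter (3.16, 0.0392) and in mixed libraries alone (4.45, 0.00514). The mixed libraries, which also gave a call at D3 (2.80, 0.00126), hold 1 library at each of these time points. The 2 sums highest in Timp2 at D3 and D21, 847 and 1720 CPM, are those of D3_mixed 3 and D21_mixed 1, and without D3_mixed 3 the D3 change was -0.22 (adjusted p = 0.994).

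Marker lists moved with these changes. In the macrophage sums the 9 microglia markers came to 311 to 1046 CPM at D1, 805 to 3190 at D10 and 2105 to 3629 at D21 (none of the 9 at 0). The 8 monocyte markers came to 3364 to 6721 CPM at D1, 805 to 5633 at D10 and 17.9 to 2648 at D21 (none of the 8 at 0). Their part in the changes of Adam8, Timp1, Mmp19 and Timp2 was not tested. At D10 the pool and the time cannot be told apart in these sums.

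Mmp12 in macrophages had 12.2, 34.9, 4.24 and 7.30 CPM at D1, 23.6, 19.1 and 12.8 at D2 and 18.7 and 2.27 at D3. It was at 0 in 2 of 4 libraries at D10, with 2.23 and 14.4 CPM in the others, and had 0 and 1317 CPM in the pair of D21 libraries. The ranges of all 5 time points overlapped, and it was called in none of the 5 comparisons run between them. At D21 it was called higher in mixed libraries alone (7.80, adjusted p = 0.0124) and without D21_infiltrating 1 (6.74, 0.0358), both of which leave D21_mixed 1 as the 1 D21 library, and without D21_mixed 1 it was -9.91 (0.284). Mmp8 lay between 42.1 and 108 CPM in the D2 and D3 libraries and had 16.2 and 8.96 at D21. Mmp14 lay between 49.8 and 167 CPM in those D2 and D3 libraries and had 48.6 and 32.9 at D21.

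Dendritic-like cells, which had 1 or 2 libraries per time point and were not tested over time, are given by library. Timp1 had 207 and 135 CPM at D1, 136 and 192 at D2, 96.9 and 41.9 at D3, 9.94 and 2.50 at D10 and 3.26 at D21. All D1 to D3 libraries lay above all later ones. Mmp14 had 82.0 and 94.6 CPM at D1, 108 and 148 at D2, 139.7 and 58.7 at D3, 25.9 and 22.5 at D10 and 45.6 at D21. Adam8 had 39.1 and 54.4 CPM at D1, 74.2 and 28.5 at D2, 10.5 and 19.6 at D3, then 3.98 and 0 at D10 and 0 at D21. For both genes, too, the D10 and D21 libraries were the lowest of the 9.

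The time course of Adam8 was called different between macrophages and microglia. In the libraries that held both, the macrophage minus microglia difference was 2.63 lower on the log2 scale at D10 and D21 than at D1 to D3 (SE 0.67, edgeR adjusted p = 0.0137). It was the 1 gene of the 7 tested that passed in edgeR, a share near the 10.7% of 9596 genes that did, and DESeq2 called 2. At D1, macrophages had 314 and 842 CPM in D1_mixed 1 and D1_mixed 3, where microglia had 178 and 405. At D10, macrophages had 0 and 4.44 CPM in D10_mixed 1 and D10_mixed 2, where microglia had 20.2 and 14.7. Macrophages were thus the higher of both at D1 and the lower in these D10 libraries. They were also lower in both D21 libraries (4.41 against 15.6 and 20.9 against 26.1 CPM), but higher in D10_resident 1 (23.2 against 15.1) and in D10_infiltrating 2 (3.31 against 0). The call was lost without D10_mixed 1 (-2.13, adjusted p = 0.0529) or D10_mixed 2 (-2.37, adjusted p = 0.058), and with at least 50 cells per sum (-2.44, adjusted p = 0.0548).

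Counts of Mmp12 were held by few cells, a pattern looked for after its values were seen. It is set beside Mmp14, Adam8 and Timp2, which have more counts; rarer members also rested on few cells, as for the 35 Mmp8 counts of microglia, of which 11 cells held 50%. In macrophages 17 cells held 50% of the 2143 Mmp12 counts, against 1263 cells for Mmp14, 1807 for Adam8 and 1085 for Timp2. In microglia 15 cells held 50% of 998 Mmp12 counts, against 445 cells for the 1315 counts of Mmp14, 398 for Adam8 and 1620 for Timp2. The 10 highest cells held 43.6% of the Mmp12 counts of macrophages and 42.7% of those of microglia. A cell with any Mmp12 carried 5.55 counts on average in macrophages and 4.58 in microglia, against 2.26 and 1.19 for Mmp14 and 3.76 and 2.23 for Adam8. For Timp2 these means were 5.61 and 4.95, above those of Mmp12. Mmp12 was found in 1.64% of microglia (median 3062 UMIs per cell) and 3.01% of macrophages (median 9144), against 0.189% of neutrophil-like cells (median 2154). After thinning each cell to 1000 UMIs the shares were 0.799%, 0.868% and 0.0958%.

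Single cells set some of the levels above. In D21_mixed 1, a single macrophage of cluster 14 with 18136 UMIs held 428 of the 441 Mmp12 counts, and without it the level was 41.0 CPM in place of 1317. The D21 change of Mmp12 in macrophages was not called (4.98, SE 1.77, adjusted p = 0.119), and with the highest cell of each library left out it was 0.33 (adjusted p = 0.934). In microglia of the same library 1 cell held 137 of 458 counts, and without it the level was 70.0 CPM. In D1_mixed 2, 1 microglial cell held 62 of 150, leaving 25.1 CPM. With the highest cell of each library left out, Mmp12 was still called in microglia at all 5 time points (adjusted p from 2.07e-04 to 0.0185). No doublet caller was run, and the part of doublets was not tested.

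**Figure D4:**
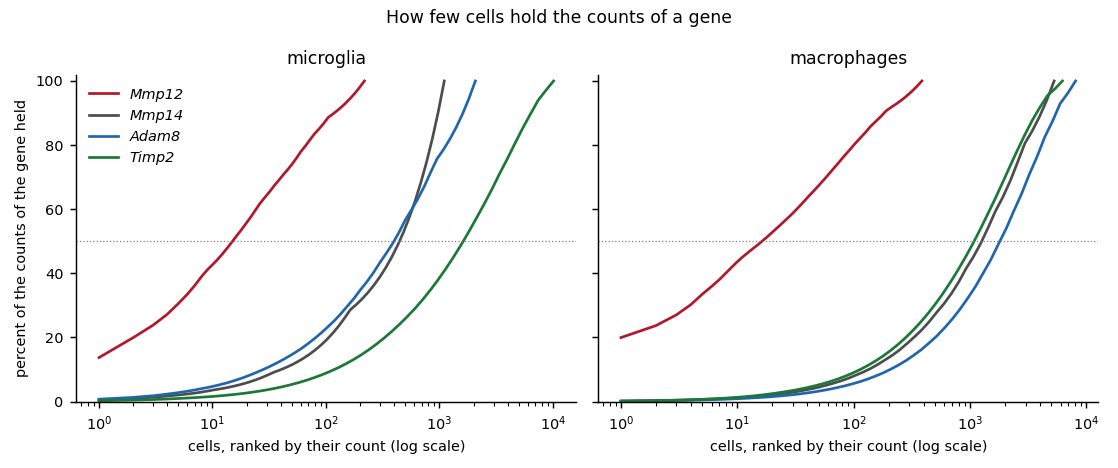
Percent of a gene's counts (vertical axis) held by the highest cells, ranked by count (log scale), in microglia and in macrophages; the dotted line marks 50%. The Mmp12 curve reaches 50% at 15 microglia and 17 macrophages, whereas Mmp14, Adam8 and Timp2 need 398 to 1807 cells.

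The authors' 16 clusters split these levels further, given here as CPM over all cells of a cluster and without a test, since clusters were set from expression. Cluster 1, all control microglia (1887 cells), had the lowest Adam8 level, 0.268 CPM, and 49.3 CPM of Mmp14. Timp2 was high in cluster 3 (1753 CPM; mostly microglia, led by Cst7 and Apoc4) and cluster 4 (1442), whose order turns by the median over libraries (1365 and 1535). Adam8 had 204 CPM in cluster 5 and 179 in cluster 2, with medians over libraries of 91.3 and 37.1. Among macrophages, cluster 12 (2043 cells, led by Dmkn and Hp) had the highest Mmp19 (153 CPM) and Timp1 (133), with Mmp8 at 111 and Timp2 at 31.6. Cluster 9 (3554 cells, led by Gpnmb) had the opposite order, with Timp2 at 825 CPM and Mmp19 at 4.20. Cluster 11 (4504 cells, led by Cxcl3) held 42.3% of all Adam8 counts at 348 CPM. Cluster 14 (118 cells from 14 libraries) had 1049 CPM of Adam8, found in 75 of its cells, while 428 of its 464 Mmp12 counts came from the 1 cell described above.

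Over the 51 sums of a cell type in a library, Pearson's r of log2(CPM + 10) between members was highest for Mmp8 with Mmp19 (0.80), Mmp14 with Timp1 (0.79) and Mmp19 with Adam8 (0.71), and lowest for Timp1 with Timp2 (-0.72). Sums share libraries and fall into 4 cell types, so these values describe the pattern and carry no test. By the same measure, among 8146 genes, Mmp9 was most like Cxcr2 (0.98), Mmp19 like Gpat3 (0.95), Timp1 like Flrt3 (0.89), Timp2 like Ctsd (0.88), Mmp8 like Chil3 (0.87), Mmp14 like Il7r (0.87) and Adam8 like Ccl7 (0.86). Mmp12 had no near partner, with 0.54 for Gm13889.

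Other genes of the pathway were followed by lists. In microglia at D1, 3 of 7 tested genes of the plasminogen system, which activates metalloproteinases, passed and rose, where 46.6% of all genes passed in either direction, among them Anxa2, a plasminogen docking protein (5.19, SE 0.65), and Plaur, the urokinase receptor (4.42, SE 0.50). Their list had a median of 0.99, against -0.01 for all tested genes. Of 7 partner genes, 4 rose, against the same 46.6%, led by Lcn2, which binds Mmp9 (6.19, SE 0.91), and Cd44, which docks proteases at the cell surface (3.75, SE 0.55). Both tested further metalloproteinases fell, Mmp11 (-2.90, SE 1.13) and Mmp2 (-2.46, SE 0.68), and 1 of 7 other protease inhibitors rose, Cstb (3.64, SE 0.38). Of 9 other Adam and Adamts genes, Adam9 rose (1.78, SE 0.51) and Adamts10 fell (-1.93, SE 0.64). In macrophages from D1 to D10, where 14.4% of all genes passed, 2 of 8 plasminogen genes fell, Plaur (-2.74, SE 0.46) and Anxa2 (-1.57, SE 0.34), as did 3 of 7 partners, led by Furin, a proprotein convertase that activates Mmp14 (-3.32, SE 0.56). The list medians were -1.24 and -1.01, against 0.01 for all tested genes, and 1 of 7 other inhibitors rose, Spint2 (3.52, SE 1.10), while 2 fell, Spint1 (-3.39, SE 0.71) and Cstb (-2.92, SE 0.35).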

How the data were processed

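Single-cell RNA was read with a droplet 3′ assay from myeloid cells of the lesion segment, enriched on Percoll and sorted by flow cytometry. The deposited files hold raw UMI counts per gene and cell, made by the authors with Cell Ranger 3.1.0 on GRCm38/mm10, per the submitters' processing notes. Cell type and cluster codes came with the cells and were named from marker lists (at least 20 CPM and at least 2-fold over the other cells). Doublets were not checked.

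Counts were summed per library and cell type (at least 20 cells) and tested with edgeR 4.0.16 in R 4.3.3 (TMM scaling, filterByExpr, quasi-likelihood F test, Benjamini-Hochberg adjustment over all tested genes, call at 0.05). Time fits had time point and sex as terms, with sex as the labels give it; for D2_infiltrating 1, labelled female, the authors' cell annotation holds the code of the male libraries. Cell type fits had the library as a block. The SE is the absolute log2 difference divided by the square root of F. The late against early difference of cell types was an interaction term. A group at 0 counts was set to 3 counts over the group, ratios of summed counts have exact 95% intervals, and both cover counting error only. Cells were thinned to 1000 UMIs where stated. Alternatives were DESeq2 1.42.0, other scaling, no filter, at least 50 cells, mixed libraries alone, pool as a term, a replicate block, each library left out, cluster 2 left out and the conflicting library added. Leaving out each library's highest cell was chosen after seeing the data. The count fit was tested on simulated data. The 9 genes and the gene lists were chosen with earlier results of these data known. Genes named beyond the 9 are, per list, the 2 called genes of largest change and, per member, the genes of highest correlation; further called inhibitors and partners were named after their values were seen.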

Additional observations from a re-analysis of the deposited data

Results flagged for a closer look

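Groups of 4 to 10 libraries were screened for a library that stands apart, and 4 of the 27 groups examined held one, where chance alone flags about 1 group in 20. Mmp8 in microglia at D3 reached 3.14 CPM in D3_mixed 3, with the next library at 0.481. Timp3 in the same group was also at 3.14 CPM in D3_mixed 3 and at 0 in the other libraries. Mmp12 in macrophages at D10 had 14.4 CPM in D10_mixed 2, with the next library at 2.23. Timp3 in macrophages at D10 had 0.496 CPM in D10_infiltrating 1 and 0 elsewhere. For Timp3 any library with the only counts stands apart by construction, so the rate of 1 in 20 does not apply to it.

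The macrophage minus microglia difference of Adam8 was 2.63 lower on the log2 scale (-2.63) at D10 and D21 than at D1 to D3, by the test of that difference. In the library with conflicting labels, which entered no fit, neutrophil-like cells had 868 CPM of Mmp9, inside the range of the 4 libraries that were compared.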

How the results depend on the processing

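For the 16 comparisons, the count of genes called was recomputed under 373 settings in all and stayed within 1.5 times its value in 324. A count that stayed at 0 is included, as in macrophages at D2 and at D3 with 1 library left out. An equal count need not hold the same genes. The 65 results for single genes were recomputed under 1455 settings: 1328 kept direction and side of the threshold, 78 gained a call, 42 lost one and 7 turned direction. In mixed libraries alone, the count of genes called in microglia was 1 against Ctrl at D1, at D2 and also at D3 but 0 at D10, and 2 at D3 against D1 and 4 at D10 against D3 in macrophages, and Mmp14 in microglia at D10 was at 0.027. With pool as a term the counts were 2 in microglia at D3 and 1 in macrophages at D21, and from D3 to D10 in microglia Mmp12 was at -3.43 and Timp2 at -0.54. For microglia from D3 to D10 the count was 2 with DESeq2, 2 with no filter, 2 without cluster 2, 1 with at least 50 cells and 1 with the replicate block. In macrophages it was 5 at D10 against D1 with no filter, at least 50 cells, without cluster 2 or with the conflicting library added. It was 4 at D21 with DESeq2 or no filter, and 2 at D10 against D3 with DESeq2, no filter, the conflicting library added or each highest cell left out. Macrophages against microglia gave 2 with no library block, and the late against early difference gave 2 with DESeq2 or no filter and 0 with at least 50 cells. The cause of these changes was not tested.

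Leaving out 1 library at a time gave counts of 1 to 2 in microglia at D2, 3 to 5 at D3, 2 to 4 from D1 to D3 and 0 to 1 from D3 to D10. In macrophages the counts were 3 to 5 at D10, 1 to 3 at D21 and 1 to 2 from D3 to D10, and for the late against early difference 0 to 2. Among single genes, leaving out 1 library turned Timp2 in macrophages at D3 (-0.22 to 3.28), Timp2 from D3 to D10 (-1.43 to 2.08, the highest without D3_mixed 3) and Mmp12 at D21 (-9.91 to 6.74, the lowest without D21_mixed 1).

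Replicate numbers are an order within a group, and the labels state no pairing. Deviations of 21 same-numbered microglia pairs had a median r of 0.010, with 7 over 0.1, against 0.0037 and 15 among 36 different-numbered pairs. In macrophages 2 of 16 same-numbered and 4 of 24 different-numbered pairs were over 0.1. In groups of 2 libraries the deviations mirror each other, so the pairs are not independent. They cannot show whether libraries shared mice. Under the replicate block, Timp2 in macrophages from D3 to D10 was at 0.78. DESeq2's size factor scaling (RLE) in edgeR gave medians over all genes in microglia against Ctrl of -0.11 to -0.18, in place of -0.01 to -0.08. Small sums limit depth: 1 count of Adam8 was worth 7.40 CPM in D2_mixed 2.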

Other observations

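Further gene lists were compared between cell types within libraries, by the same edgeR fits. In neutrophil-like cells against macrophages, where 48.1% of all genes passed, 3 of 5 tested granule genes were higher and 1 was lower. Those of largest change were Ngp, also one of the markers that named these cells (9.07, SE 1.01), and Ltf (8.67, SE 0.60) on the log2 scale. Mmp25, a membrane-anchored metalloproteinase, was 5.32 higher (SE 0.53) and Mmp13, a collagenase, was at -7.21 (SE 2.19). Of 8 plasminogen system genes 5 were lower, against the same 48.1%, among them S100a10 (-4.63, SE 0.39). In dendritic-like cells against macrophages, where 40.5% of genes passed, Mmp27 (-5.18, SE 0.67) and Mmp13 (-3.14, SE 0.63) were lower, as was the inhibitor Slpi (-5.49, SE 0.52), while Spint2 was higher (4.17, SE 0.46). Between macrophages and microglia, Slpi (6.55, SE 0.50) and Serpinb1a (3.31, SE 0.99), inhibitors of serine proteases, were higher in macrophages, and Serpine2, a further serine protease inhibitor, was lower (-4.80, SE 0.37).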
